A study of Mus musculus with 6 samples.

Results

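The genes described are 35 genes by which tumour macrophages are commonly recognised, a list given by symbol and found by Entrez number in a table of 15295 genes. All 35 were in the table with 1 row each, and all passed the filter on low counts. The RNA was of whole tumours of the bladder cancer line NA13, from mouse, with C57BL/6 as the labelled strain and IgG given to every tumour. For 3 libraries the labels give a scrambled shRNA (called control here) and for 3 an shRNA against Ddr2, a collagen receptor (called labelled shDdr2). NA13 is 1 cell line, so the series shows nothing of how other lines differ, and whether libraries of a group are separate animals is not stated, so p-values measure a spread that may be partly technical. Levels are given in CPM, a gene's counts scaled to a common library total after TMM scaling, which balances libraries on the bulk of their genes. Because the tumours were not sorted, fewer macrophages and less RNA per macrophage cannot be told apart.

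Macrophages are phagocytes that engulf dying cells, antibody-coated particles and matrix fragments and break them down in lysosomes. In tumours they arise from blood monocytes or from macrophages already resident in the tissue, and they are often the most abundant leukocytes. Their genes can be grouped by role: the transcription factor and surface proteins that mark the lineage, Fc receptors that bind antibody, the 3 chains of complement C1q, lysosomal proteins, genes for killing microbes, markers of resident-type macrophages, the Trem2 lipid receptor with its adaptor and the lipid carrier Apoe, and receptors for microbial or modified ligands. Several lysosomal proteins of the list, such as the cathepsins, are made by most cell types, epithelial cells included.

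Promoters were available in RefSeq (GRCm38.p6) for 27 of the 35 genes, and 5 are shown, picked from genes that the results below turn on. The C1q chains varied together, Mrc1 varied widely between libraries, Lyz2 was the gene whose groups did not overlap, and Ctsd was highest in the libraries numbered 1, where many of the others were lowest. Each line gives the 250 bases before the RefSeq start, 5′ to 3′ on the strand of the gene. Gene coordinates given below are from GENCODE, and by these C1qc, Mrc1, Lyz2 and Ctsd reach into their own windows. They lie at C1qb (chr4:136886201-136886450, minus strand), C1qc (chr4:136892915-136893164, minus strand), Mrc1 (chr2:14229164-14229413, plus strand), Lyz2 (chr10:117282273-117282522, minus strand) and Ctsd (chr7:142387828-142388077, minus strand). Capitals mark AGGAAGT, a sequence of the kind bound by PU.1 (the product of Spi1), on either strand in the other four, and CACGTG, the core of the element bound by lysosomal regulators of the TFEB family, in Ctsd. Apart from Ctsd, the promoters shown all hold AGGAAGT, which 8 of 27 genes had, so they are not typical of the list. C1qa and Cd163, which the results below also describe, are not shown.
C1qb: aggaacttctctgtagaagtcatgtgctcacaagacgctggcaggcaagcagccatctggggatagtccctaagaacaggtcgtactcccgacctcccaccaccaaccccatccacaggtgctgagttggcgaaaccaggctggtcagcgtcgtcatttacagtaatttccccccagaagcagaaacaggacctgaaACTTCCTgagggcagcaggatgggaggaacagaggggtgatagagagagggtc
C1qc: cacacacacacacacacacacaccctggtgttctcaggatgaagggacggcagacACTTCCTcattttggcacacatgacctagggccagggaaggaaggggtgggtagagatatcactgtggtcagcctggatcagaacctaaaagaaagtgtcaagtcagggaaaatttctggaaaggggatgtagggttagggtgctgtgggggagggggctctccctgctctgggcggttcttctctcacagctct
Mrc1: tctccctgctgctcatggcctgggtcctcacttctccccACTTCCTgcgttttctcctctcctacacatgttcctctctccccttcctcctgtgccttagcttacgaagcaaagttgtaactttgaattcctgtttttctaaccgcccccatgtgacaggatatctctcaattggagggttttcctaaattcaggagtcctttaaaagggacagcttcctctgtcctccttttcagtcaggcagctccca
Lyz2: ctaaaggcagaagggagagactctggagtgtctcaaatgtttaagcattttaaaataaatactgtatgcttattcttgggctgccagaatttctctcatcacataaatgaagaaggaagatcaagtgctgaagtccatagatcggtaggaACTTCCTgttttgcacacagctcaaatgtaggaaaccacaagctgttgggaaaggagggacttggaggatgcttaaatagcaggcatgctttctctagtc
Ctsd: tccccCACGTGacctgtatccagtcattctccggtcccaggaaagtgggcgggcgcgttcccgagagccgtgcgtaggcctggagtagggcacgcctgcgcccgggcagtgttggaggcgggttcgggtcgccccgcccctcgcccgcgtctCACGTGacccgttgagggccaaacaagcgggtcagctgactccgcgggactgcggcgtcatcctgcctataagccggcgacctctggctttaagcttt

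AGGAAGT stood on either strand of this window in 8 of 27 macrophage genes (C1qb, C1qc, Fcgr1, Fcgr4, Folr2, Lyz2, Mrc1 and Pf4), and in 7.69% of the 32851 promoters of the table. CACGTG stood in 3 of 27, all of them of the lysosomal role (Ctsd, Ctsl and Lgmn), and in 6.02% of all promoters. In C1qb the match lay 53 bases before the start, in Lyz2 100, in C1qc 195 and in Mrc1 211, and Ctsd had 2 matches. The overlapping strings GAGGAAGT and GGAAGT were in 3 of 27 and 11 of 27 genes, against 2.44% and 19.7% of all promoters. TCACGTGA, which contains CACGTG, was in 1 of 27 genes and, with a G before and a C after it, in 0 of 27, against 0.785% and 0.24% of all promoters. Of the other strings searched on both strands, TTCCTC (which overlaps GAGGAAGT read on the opposite strand) was in 14 of 27 genes, against 23.3%. TATAAA was in 3 of 27, against 12.4%. CCGGAAGT, which contains GGAAGT, was in 1 of 27, against 2.88%. A macrophage gene was counted once if any of its promoters held the string, while the percentages are shares of single promoters. The counts and percentages are therefore not like measures. A match is a run of letters and not a measured binding site.

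Totals ranged from 15560571 to 19522985 counts per library. Labelled shDdr2 1 stood apart on the first principal component of all genes, and control 1 on the second. Ddr2, the targeted gene, was at 6.42, 16.7 and 20.5 CPM in control 1 to 3 and 4.84, 19.0 and 28.6 CPM in labelled shDdr2 1 to 3, and its fold change between the groups, 0.27 (SE 0.66) on the log2 scale, became -0.28 with labelled shDdr2 3 left out. Its level therefore did not separate the groups, and every direction given is between libraries as labelled. Macrophages were detectable in all 6 libraries by markers outside the list: Csf1r, the receptor for macrophage colony-stimulating factor, was at 40.6, 96.0 and 69.8 CPM in control 1 to 3 and 17.0, 96.8 and 103 CPM in labelled shDdr2 1 to 3, and Maf, a transcription factor of macrophages and some other cells, at 81.1, 102 and 100.3 CPM in control 1 to 3 and 101, 70.0 and 73.9 CPM in labelled shDdr2 1 to 3. Csf1r was lowest in the libraries numbered 1, and Maf in labelled shDdr2 2.

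Most macrophage genes were low in the same libraries, 1 from each group. In 18 of 35 genes the 2 lowest libraries were control 1 and labelled shDdr2 1, and in 30 the lowest was either of them, against 49% of all genes. Over all 14498 genes tested, control 1 and labelled shDdr2 1 were the 2 lowest libraries in 20.5% of genes and the 2 highest in 20.7%. They were the 2 highest in 1 macrophage gene, Ctsd. The highest library was control 2 in 14 genes and labelled shDdr2 3 in 9, so the high end held libraries of both groups. The highest library exceeded the lowest by a median of 2.50 times, against 2.04 times for all genes, and by 1.42 times (Ctsb) to 15.3 times (Cd163).

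**Figure D1:**
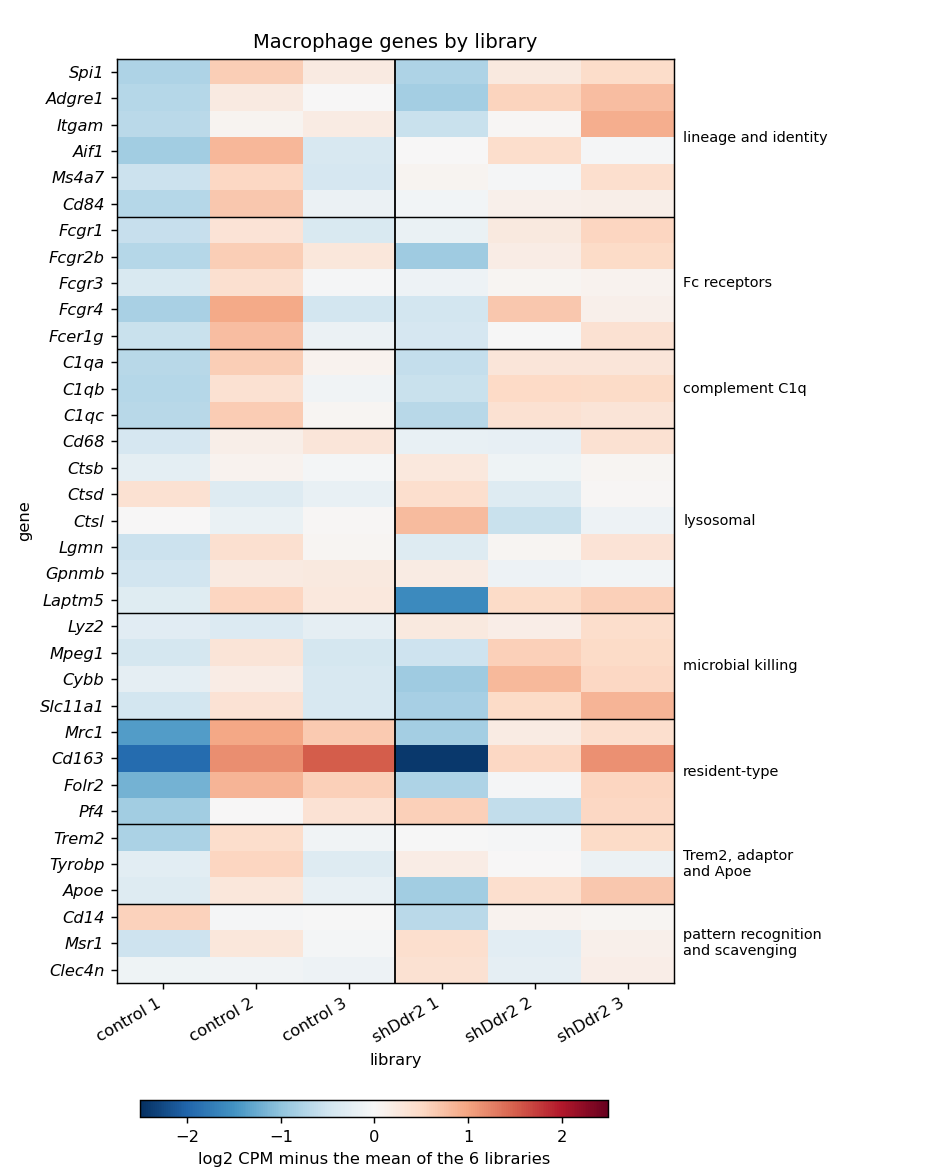
Level of each macrophage gene (rows, by role) in each library (columns), as log2 CPM minus the mean of the 6 libraries; the vertical line parts controls from libraries labelled shDdr2. Control 1 and labelled shDdr2 1 are blue (low) for most rows, most deeply for Cd163, while the cathepsin genes and Clec4n do not share that pattern.

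Markers of other cells also varied between these libraries, and their part in the macrophage values was not tested. Fibroblast markers (10 of 10 genes in the table) summed to 2416, 4205 and 5114 CPM in control 1 to 3 and 1330.3, 3639 and 10019.9 CPM in labelled shDdr2 1 to 3, endothelial markers (8 of 8) to 142, 278 and 276 CPM in control 1 to 3 and 92.0, 218 and 412 CPM in labelled shDdr2 1 to 3, and leukocyte genes shared by many immune cells (10 of 10) to 316, 531 and 414 CPM in control 1 to 3 and 479.9, 452 and 412 CPM in labelled shDdr2 1 to 3. Keratinocyte markers (10 of 10) summed to 787 to 1131 CPM in the controls and 819.5 to 3972 CPM in the libraries labelled shDdr2, the highest value being that of labelled shDdr2 1. Epithelial markers (10 of 10) summed to 11356 to 13286 CPM in the controls and 11205 to 12502 CPM in the libraries labelled shDdr2, with 5 genes lower without overlap between the groups, against 2.11% of all genes. Fibroblast and endothelial sums were thus lowest in the libraries numbered 1, as most macrophage genes were. By mean log2 CPM the 10 leukocyte genes were also lowest in control 1 (4.06) and labelled shDdr2 1 (4.28), against 4.50 to 5.05 in the other 4 libraries. In the same measure the 10 epithelial markers were lowest in labelled shDdr2 1 (6.91) and highest in control 1 (8.36), with 7.75 to 8.21 in the other 4.

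Between the groups, no macrophage gene passed the test. At an adjusted p under 0.05 in edgeR's quasi-likelihood test with Benjamini-Hochberg adjustment over all genes, 0 of 35 macrophage genes were called, as were 0% of the 14498 genes tested. At an unadjusted p under 0.05 there was 1 macrophage gene, Lyz2, against 1.44% of all genes. The groups did not overlap in 1 of 35 genes, again Lyz2, against 4.32% of all genes (2.21% higher and 2.11% lower). DESeq2 called 0 of 35, against 0.262% of the genes it tested, and limma made 0 calls, whether on voom weights or with the log2 values as deposited. Fitted log2 fold changes (labelled shDdr2 minus control) were above 0 for 21 and below 0 for 14 macrophage genes, with a median of 0.093, beside 57.1% above 0 and a median of 0.040 for all genes. Without control 2, 32 genes were above 0, and without control 1, 16. The sign of the fold change turned in 22 of 35 genes when 1 library was left out.

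**Figure D2:**
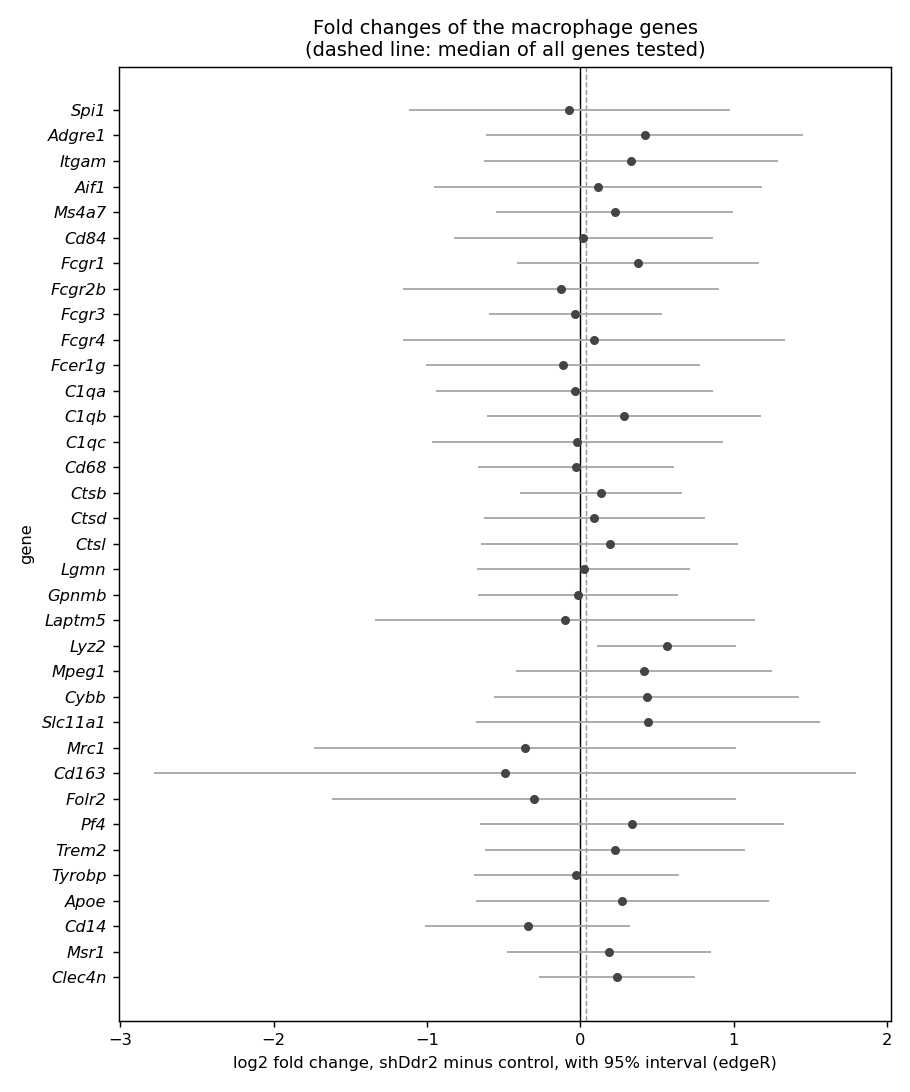
Log2 fold change of each macrophage gene between the groups (x axis, labelled shDdr2 minus control) with its 95% interval from edgeR; the solid line marks 0 and the dashed line the median of all genes, 0.040. Only the interval of Lyz2 lies to the right of 0, and the widest is that of Cd163, from -2.78 to 1.80.

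The genes that mark the lineage were low per length, and in 3 of 6 the 2 lowest libraries were those numbered 1. Spi1 (Entrez 20375, chromosome 2, 91082390 to 91115756), which encodes PU.1, the transcription factor needed to form macrophages, was at 8.14, 21.4 and 16.3 CPM in control 1 to 3 and 8.16, 16.5 and 19.1 CPM in labelled shDdr2 1 to 3. Adgre1 (Entrez 13733, chromosome 17, 57358691 to 57483527), which encodes the F4/80 antigen, was at 15.5, 29.6 and 25.5 CPM in control 1 to 3 and 14.0, 37.3 and 43.0 CPM in labelled shDdr2 1 to 3. Both had their 2 lowest values in the libraries numbered 1, and the groups overlapped. The log2 fold changes were -0.070 (SE 0.45, 95% interval -1.12 to 0.98) for Spi1 and 0.42 (SE 0.44, 95% interval -0.61 to 1.46) for Adgre1. Itgam, the CD11b integrin chain shared with neutrophils, was at 16.7, 27.8 and 30.6 CPM in control 1 to 3 and 18.1, 27.0 and 49.4 CPM in labelled shDdr2 1 to 3, highest in labelled shDdr2 3 and at 0.33 (SE 0.41) between the groups. Aif1, an actin-binding protein of macrophages, was at 6.31, 20.7 and 8.80 CPM in control 1 to 3 and 11.7, 15.7 and 11.4 CPM in labelled shDdr2 1 to 3. Ms4a7, a membrane protein of macrophages, was at 14.1, 29.1 and 15.2 CPM in control 1 to 3 and 21.3, 19.9 and 27.1 CPM in labelled shDdr2 1 to 3. Cd84, an adhesion receptor of leukocytes, was at 11.8, 31.1 and 17.4 CPM in control 1 to 3 and 18.5, 21.1 and 21.5 CPM in labelled shDdr2 1 to 3. These 3 were highest in control 2 and lowest in control 1, with control 3 second lowest, with fold changes of 0.12 (SE 0.46), 0.22 (SE 0.33) and 0.020 (SE 0.36). The mean log2 CPM of the 6 genes was 3.53, 4.72 and 4.15 in control 1 to 3 and 3.88, 4.46 and 4.67 in labelled shDdr2 1 to 3. Control 2 and labelled shDdr2 3 were thus nearly level at the top, and control 1 was lowest.

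Fc receptors bind the constant part of antibodies. Fcgr1, Fcgr3 and Fcgr4 are activating receptors that signal through the shared gamma chain Fcer1g, and Fcgr2b is the inhibitory receptor. Fcgr2b, Fcgr4, Fcgr3 and Fcer1g lie within 276 kb of chromosome 1 (GRCm38). The extracellular parts of Fcgr2b, Fcgr3 and Fcgr4 are similar in sequence, so reads can be shared between them and the split is uncertain. Fcgr2b was at 32.6, 81.7 and 65.1 CPM in control 1 to 3 and 28.8, 60.8 and 74.5 CPM in labelled shDdr2 1 to 3, and its 2 lowest libraries were those numbered 1. Fcgr3 was at 38.7, 66.1 and 49.3 CPM in control 1 to 3 and 45.6, 51.6 and 53.4 CPM in labelled shDdr2 1 to 3, with a narrower range of 1.71 times between highest and lowest against 2.83 times for Fcgr2b. Their log2 fold changes were -0.13 (SE 0.44, 95% interval -1.16 to 0.90) and -0.034 (SE 0.24, 95% interval -0.60 to 0.53).

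Fcgr4, the receptor for the most inflammatory mouse antibody classes, was at 4.69, 15.9 and 6.03 CPM in control 1 to 3 and 5.99, 13.2 and 9.07 CPM in labelled shDdr2 1 to 3. Control 2 and labelled shDdr2 2 were its 2 highest libraries, and in control 1 it rested on 87 counts (exact 95% Poisson interval 3.76 to 5.79 CPM, counting error only). Fcgr1, the high-affinity receptor, was at 8.79, 16.8 and 10.2 CPM in control 1 to 3 and 11.7, 15.6 and 19.1 CPM in labelled shDdr2 1 to 3, and Fcer1g at 20.0, 50.0 and 26.8 CPM in control 1 to 3 and 22.0, 29.1 and 38.3 CPM in labelled shDdr2 1 to 3. Fcer1g was highest in control 2, Fcgr1 in labelled shDdr2 3, and neither separated the groups, with fold changes of 0.37 (SE 0.34) for Fcgr1 and -0.11 (SE 0.38) for Fcer1g. Within each library, the activating receptors summed per kilobase of exon stood to Fcgr2b as 5.23, 4.06 and 3.30 in control 1 to 3 and 7.15, 4.40 and 3.53 in labelled shDdr2 1 to 3. That ratio was highest in the libraries numbered 1 in both groups, and the groups overlapped. Per kilobase, Fcer1g was at 0.706 to 1.00 times the sum of the activating receptors.

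C1q, the recognition unit of the classical complement pathway, is built from equal numbers of A, B and C chains and is made largely by macrophages. Its genes C1qb, C1qc and C1qa (Entrez 12260, 12262 and 12259) lie side by side on chromosome 4, 136880129 to 136898803 (GRCm38), all on the minus strand. C1qa was at 63.5, 157 and 109 CPM in control 1 to 3 and 67.7, 127 and 126 CPM in labelled shDdr2 1 to 3. C1qb was at 20.5, 44.0 and 31.6 CPM in control 1 to 3 and 22.7, 47.5 and 46.9 CPM in labelled shDdr2 1 to 3, and C1qc at 45.4, 114 and 76.5 CPM in control 1 to 3 and 45.6, 95.2 and 91.8 CPM in labelled shDdr2 1 to 3. All 3 chains had their 2 lowest values in control 1 and labelled shDdr2 1, and the other 4 libraries mixed both groups. Log2 fold changes were -0.037 (SE 0.38, 95% interval -0.94 to 0.87) for C1qa, 0.29 (SE 0.38, 95% interval -0.61 to 1.18) for C1qb and -0.018 (SE 0.40, 95% interval -0.97 to 0.93) for C1qc. With 1 library left out, that of C1qb lay between 0.057 and 0.58, and those of C1qa and C1qc changed sign.

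Although the level of the chains varied 2.32 to 2.50 times between libraries, their proportions moved little. The ratio of C1qc to C1qa per kilobase lay between 0.363 and 0.404 in the 6 libraries, in an order that mixed the groups. The ratio of C1qb to C1qa was 0.309, 0.268 and 0.278 in control 1 to 3 and 0.321, 0.358 and 0.355 in labelled shDdr2 1 to 3, so all 3 libraries labelled shDdr2 lay above all 3 controls. Of 13 ratios between macrophage genes computed, 2 had groups that did not overlap, this one and C1qc to C1qb, and both rest on C1qb. These ratios were picked after the values were seen and were not tested. With 3 libraries against 3, an exact permutation test could not give less than p = 0.1.

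**Figure D3:**
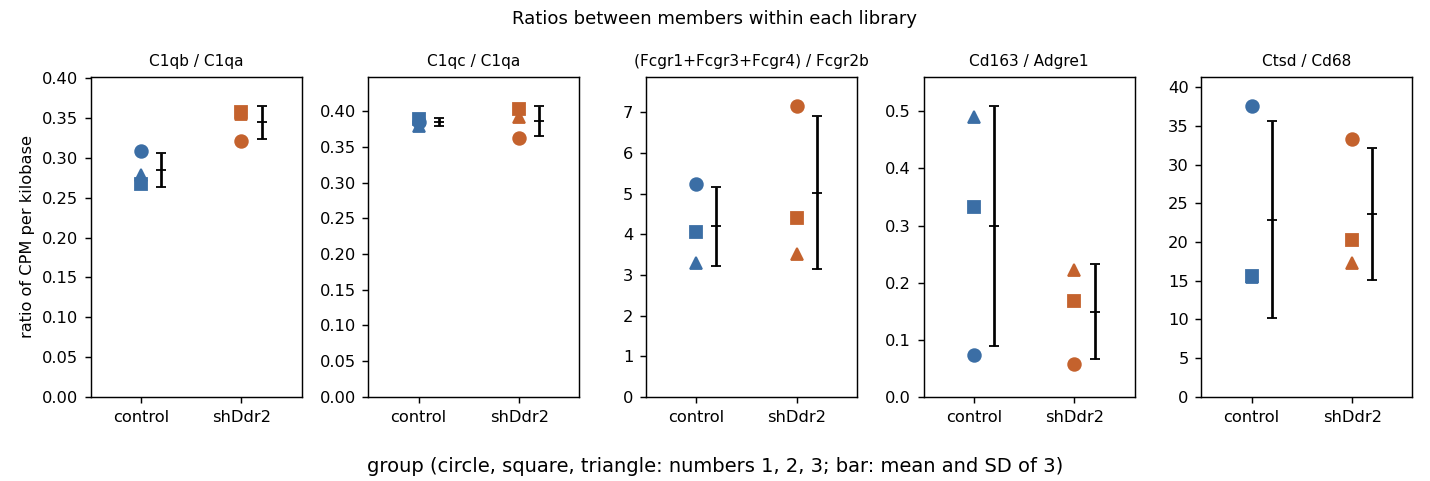
Ratios between pairs or sums of macrophage genes in each library, in CPM per kilobase of exon (y axis, from 0), for the controls and the libraries labelled shDdr2; bars are the mean and SD of 3. The C1qb to C1qa ratio separates the groups while C1qc to C1qa does not, and the libraries numbered 1 (circles) stand apart in the other 3 panels.

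Genes of lysosomal proteins had the highest mean level per kilobase of any role, and the cathepsins ordered the libraries unlike C1q. Ctsb, Ctsd, Ctsl and Gpnmb together took 0.378% to 0.478% of all counts in a library, out of 0.554% to 0.730% for all 35 genes. Ctsd (Entrez 13033, chromosome 7, 142375911 to 142388038), an aspartic protease, was at 2010.3, 1239 and 1356 CPM in control 1 to 3 and 2076, 1244 and 1592 CPM in labelled shDdr2 1 to 3. Control 1 and labelled shDdr2 1 were its 2 highest libraries, the reverse of C1q. Ctsl, a cysteine protease, was at 504, 448 and 512 CPM in control 1 to 3 and 872, 341 and 460.4 CPM in labelled shDdr2 1 to 3, and the value of labelled shDdr2 1 exceeded all others. Ctsb, another cysteine protease, was at 659.9, 826 and 753 CPM in control 1 to 3 and 937, 722 and 804 CPM in labelled shDdr2 1 to 3, also highest in labelled shDdr2 1. The fold changes were 0.093 (SE 0.31, 95% interval -0.63 to 0.82), 0.19 (SE 0.36, 95% interval -0.65 to 1.03) and 0.14 (SE 0.23, 95% interval -0.39 to 0.67) in that order, and that of Ctsl was -0.28 without labelled shDdr2 1.

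Gpnmb, a membrane glycoprotein of lysosome-rich macrophages and of pigment cells, was at 1015, 1636 and 1658 CPM in control 1 to 3 and 1633, 1293 and 1345 CPM in labelled shDdr2 1 to 3, lowest in control 1. Lgmn, the asparaginyl endopeptidase legumain, was at 87.9, 169 and 132 CPM in control 1 to 3 and 101, 132 and 162 CPM in labelled shDdr2 1 to 3, with its 2 lowest values in the libraries numbered 1. Cd68, a lysosomal glycoprotein used to stain macrophages, was at 28.6, 42.3 and 47.0 CPM in control 1 to 3 and 33.4, 32.9 and 49.4 CPM in labelled shDdr2 1 to 3, and Laptm5, a lysosomal membrane protein of blood cells, at 60.9, 109 and 90.0 CPM in control 1 to 3 and 25.0, 105 and 113 CPM in labelled shDdr2 1 to 3. Laptm5 in labelled shDdr2 1 was lower than in every other library, by 4.52 times against the highest. Lgmn and Laptm5, like C1q, had their 2 lowest values in the libraries numbered 1, and Ctsb, Ctsd and Ctsl did not. None of these 4 separated the groups, with fold changes from -0.099 (SE 0.53) for Laptm5 to 0.024 (SE 0.30) for Lgmn. Per kilobase, Ctsd stood to Cd68 as 37.5, 15.7 and 15.4 in control 1 to 3 and 33.3, 20.2 and 17.2 in labelled shDdr2 1 to 3.

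Of 30 further genes for lysosomal enzymes, membrane proteins and regulators, all in the table, 18 had fitted values above 0 and 12 below, 0 were called, and the median log2 fold change was 0.038. Their summed level was 4755 to 5104 CPM in the controls and 4833 to 5149.7 CPM in the libraries labelled shDdr2. The libraries numbered 1 did not stand apart in that sum. By mean log2 CPM of the 30 genes, however, control 1 (6.26) and labelled shDdr2 1 (6.27) were the 2 lowest, against 6.39 to 6.51 elsewhere. Lamp1, a main protein of the lysosomal membrane, was at 803, 688 and 683 CPM in control 1 to 3 and 717, 679 and 702 CPM in labelled shDdr2 1 to 3, nearly level, and Psap, the precursor of proteins that help degrade sphingolipids, at 491, 856 and 681 CPM in control 1 to 3 and 461, 887 and 803 CPM in labelled shDdr2 1 to 3, with its 2 lowest values in the libraries numbered 1. Lipa, the lysosomal acid lipase, was at 28.6, 27.5 and 26.0 CPM in control 1 to 3 and 29.7, 31.1 and 43.6 CPM in labelled shDdr2 1 to 3, and its groups did not overlap, as in 2.21% of all genes in that direction, with a log2 fold change of 0.35 (SE 0.22).

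Among the genes for killing microbes, Lyz2 was the macrophage gene with the clearest difference between the groups, although it did not pass the adjusted test. Lyz2 (Entrez 17105, chromosome 10, 117277331 to 117282321), lysozyme of macrophages and neutrophils, was at 279.8, 269.5 and 291 CPM in control 1 to 3 and 404, 381 and 458 CPM in labelled shDdr2 1 to 3. All 3 libraries labelled shDdr2 exceeded all 3 controls, and the libraries numbered 1 were not low. The means were 280.1 ± 10.8 CPM in the controls and 414 ± 40.0 CPM in the libraries labelled shDdr2 (SD, n = 3 each), and the fold change was 0.56 (SE 0.19, 95% interval 0.11 to 1.02) on the log2 scale (unadjusted p = 0.0212, edgeR). Groups that did not overlap in the higher direction were found in 2.21% of all genes, and an unadjusted p under 0.05 with a higher value in 0.993%. Over all fits the Benjamini-Hochberg adjusted p of Lyz2 lay between 0.354 (DESeq2) and 1.00 (edgeR), and the fold change between 0.48 and 0.62 when any 1 library was left out. Its near-identical copy Lyz1 is also in the table, and how shared reads were divided is not given in the sources used here.

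Neutrophils also make Lyz2, and the values of their markers and of muscle markers, whose part in the Lyz2 values was not tested, were as follows. Of neutrophil markers, 11 of 12 were in the table, 8 of 11 had lower fitted values, opposite to Lyz2, and their sum was 291 to 572 CPM in the controls and 122 to 425 CPM in the libraries labelled shDdr2. Skeletal muscle markers, all 12 of them in the table, had higher fitted values in 12 of 12 genes, 10 of them without overlap between the groups (against 2.21% of all genes), with a sum of 10.5 to 124 CPM in the controls and 469.6 to 3608 CPM in the libraries labelled shDdr2. Of the neutrophil markers 3 of 11 were lower without overlap, against 2.11% of all genes, S100a9 among them at 55.6, 21.2 and 26.6 CPM in control 1 to 3 and 12.1, 5.85 and 17.5 CPM in labelled shDdr2 1 to 3. The neutrophil sums, in which Ltf and Mmp9 had the highest mean counts, overlapped between the groups, and the muscle sums did not. No marker of either kind that is in the table stood at 0, since the table holds no count under 1.

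The other 3 genes of this role were also above 0 in the fit, and their groups overlapped. Mpeg1, which encodes perforin-2, a pore-forming protein, was at 70.0, 119 and 70.4 CPM in control 1 to 3 and 66.9, 145 and 134 CPM in labelled shDdr2 1 to 3. Cybb, the catalytic subunit of the phagocyte NADPH oxidase, was at 21.6, 29.0 and 19.2 CPM in control 1 to 3 and 13.6, 44.4 and 36.1 CPM in labelled shDdr2 1 to 3. Slc11a1, a metal transporter of the phagosome membrane, was at 4.85, 8.60 and 5.03 CPM in control 1 to 3 and 3.75, 9.31 and 12.0 CPM in labelled shDdr2 1 to 3. In each, labelled shDdr2 2 and 3 were the highest libraries and labelled shDdr2 1 the lowest of all 6. The fold changes were 0.42 (SE 0.36), 0.43 (SE 0.42) and 0.44 (SE 0.48), with unadjusted p from 0.278 to 0.386. Without labelled shDdr2 1 they were 0.69, 0.79 and 0.79, while without labelled shDdr2 2 Mpeg1 was at 0.22 and Cybb at 0.097, and without labelled shDdr2 3 Slc11a1 was at 0.089, with 0 calls in edgeR in each.

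As a role mean, the markers of resident-type macrophages varied the most between libraries. Cd163 (Entrez 93671, chromosome 6, 124304656 to 124330527), the scavenger receptor for haemoglobin bound to haptoglobin, was at 1.94, 16.5 and 21.1 CPM in control 1 to 3 and 1.37, 10.5 and 16.1 CPM in labelled shDdr2 1 to 3. The low values rested on 36 counts in control 1 (exact 95% Poisson interval 1.36 to 2.69 CPM) and 19 in labelled shDdr2 1 (0.826 to 2.14 CPM), and both intervals lie below the values of the other 4 libraries. Mrc1 (Entrez 17533, chromosome 2, 14229392 to 14332057), the mannose receptor CD206, was at 24.6, 126 and 103 CPM in control 1 to 3 and 35.9, 74.1 and 86.9 CPM in labelled shDdr2 1 to 3. Folr2, a folate receptor of resident macrophages, was at 3.56, 14.5 and 12.3 CPM in control 1 to 3 and 4.77, 7.99 and 11.8 CPM in labelled shDdr2 1 to 3. In all 3 genes the libraries numbered 1 were the 2 lowest and control 2 and 3 the 2 highest.

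Between the groups, the log2 fold changes were -0.49 (SE 0.98, 95% interval -2.78 to 1.80) for Cd163, -0.36 (SE 0.59, 95% interval -1.74 to 1.02) for Mrc1 and -0.30 (SE 0.56, 95% interval -1.62 to 1.02) for Folr2. All 3 were negative with all libraries. Without control 2, Mrc1 was at 0.046 and Folr2 at 0.050, and Cd163 was at 0.020 without control 3 and 0.015 without labelled shDdr2 1. Without control 1 the 3 were at -1.0, -0.79 and -0.70, and without labelled shDdr2 3 Cd163 was at -1.13, with 0 calls in edgeR in each. Pf4, the chemokine platelet factor 4, made by platelets and by some resident macrophages, followed another order at 9.55, 17.5 and 22.4 CPM in control 1 to 3 and 26.2, 11.4 and 24.9 CPM in labelled shDdr2 1 to 3. Labelled shDdr2 1 was its highest library and control 1 its lowest, and the fold change was 0.34 (SE 0.42). Erythrocyte markers, 4 of 5 in the table, summed to 596, 56.0 and 46.1 CPM in control 1 to 3 and 62.6, 25.1 and 46.6 CPM in labelled shDdr2 1 to 3, highest in control 1, where Cd163 was low. Their part in the Cd163 values was not tested.

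Of 10 other genes linked to resident-type macrophages, 6 were in the table, and Timd4, Vsig4, Cd5l and Marco were not analysed here. Fitted values were above 0 in 1 and below in 5, with 0 called and a median log2 fold change of -0.088. Lyve1, a hyaluronan receptor that lymphatic vessels also carry, was at 1.83, 3.94 and 10.2 CPM in control 1 to 3 and 1.01, 4.38 and 6.20 CPM in labelled shDdr2 1 to 3, with its 2 lowest values in the libraries numbered 1. Selenop, a selenium transport protein, was at 80.3, 206 and 155 CPM in control 1 to 3 and 109, 133 and 190.3 CPM in labelled shDdr2 1 to 3, again lowest there. Cbr2, a carbonyl reductase, was highest in control 1 at 733 CPM and lowest in labelled shDdr2 1 at 181 CPM.

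Trem2, a receptor for lipids and dying cells, signals through the adaptor Tyrobp (DAP12), and Apoe carries lipids out of macrophages. Apoe (Entrez 11816, chromosome 7, 19696109 to 19699188) stood at 412, 624 and 451 CPM in control 1 to 3 and 281, 690.3 and 825 CPM in labelled shDdr2 1 to 3. It was lowest in labelled shDdr2 1 and highest in labelled shDdr2 3, so that group held both ends of the range. Trem2 was at 6.74, 15.8 and 10.9 CPM in control 1 to 3 and 11.5, 11.4 and 16.1 CPM in labelled shDdr2 1 to 3, and Tyrobp at 23.1, 40.6 and 22.3 CPM in control 1 to 3 and 31.4, 28.0 and 25.1 CPM in labelled shDdr2 1 to 3. Trem2 was lowest in control 1, and Tyrobp was highest in control 2 and between 22.3 and 31.4 CPM elsewhere. The fold changes were 0.27 (SE 0.41, 95% interval -0.68 to 1.23) for Apoe, 0.22 (SE 0.36) for Trem2 and -0.026 (SE 0.28) for Tyrobp. Per kilobase, Trem2 stood at 0.0393 to 0.0864 of Tyrobp, an adaptor that serves many other receptors. That ratio rests on annotated exon lengths of 4946 bases for Trem2 and 667 for Tyrobp, and which transcripts were present was not tested.

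Receptors for microbial or modified ligands did not follow the common order. Cd14, the co-receptor for bacterial lipopolysaccharide, was at 72.7, 47.6 and 48.3 CPM in control 1 to 3 and 30.8, 51.6 and 50.6 CPM in labelled shDdr2 1 to 3, highest in control 1 and lowest in labelled shDdr2 1. Msr1, the class A scavenger receptor, was at 21.6, 37.6 and 30.0 CPM in control 1 to 3 and 41.7, 25.9 and 33.8 CPM in labelled shDdr2 1 to 3, and Clec4n (dectin-2), a receptor for fungal mannans, at 29.6, 30.1 and 29.5 CPM in control 1 to 3 and 42.0, 27.6 and 35.8 CPM in labelled shDdr2 1 to 3. The controls of Clec4n were at 29.7 ± 0.299 CPM (SD, n = 3), while labelled shDdr2 2 was below all of them and the other two above. Msr1 and Clec4n were highest in labelled shDdr2 1, where C1q was near its lowest. The fold changes were -0.34 (SE 0.29, 95% interval -1.01 to 0.33) for Cd14, 0.19 (SE 0.28) for Msr1 and 0.24 (SE 0.22) for Clec4n.

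Set side by side, the roles differed in how far they varied between libraries. The mean log2 CPM of the 4 resident-type genes was 2.70, 4.76 and 4.80 in control 1 to 3 and 3.19, 4.04 and 4.67 in labelled shDdr2 1 to 3, a range of 2.10. For the 3 C1q genes it was 5.29, 6.53 and 6.00 in control 1 to 3 and 5.37, 6.38 and 6.35 in labelled shDdr2 1 to 3, a range of 1.24, and the 5 Fc receptor genes had a range of 1.21. The 7 lysosomal genes had a range of 0.40, from 8.08 in control 1 to 8.47 in labelled shDdr2 3, and the 3 pattern recognition genes one of 0.24. These narrow ranges are those of averages over genes that ordered the libraries differently: in labelled shDdr2 1 Laptm5 and Cd14 were at their lowest and Ctsb, Ctsd, Ctsl, Msr1 and Clec4n at their highest.

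**Figure D4:**
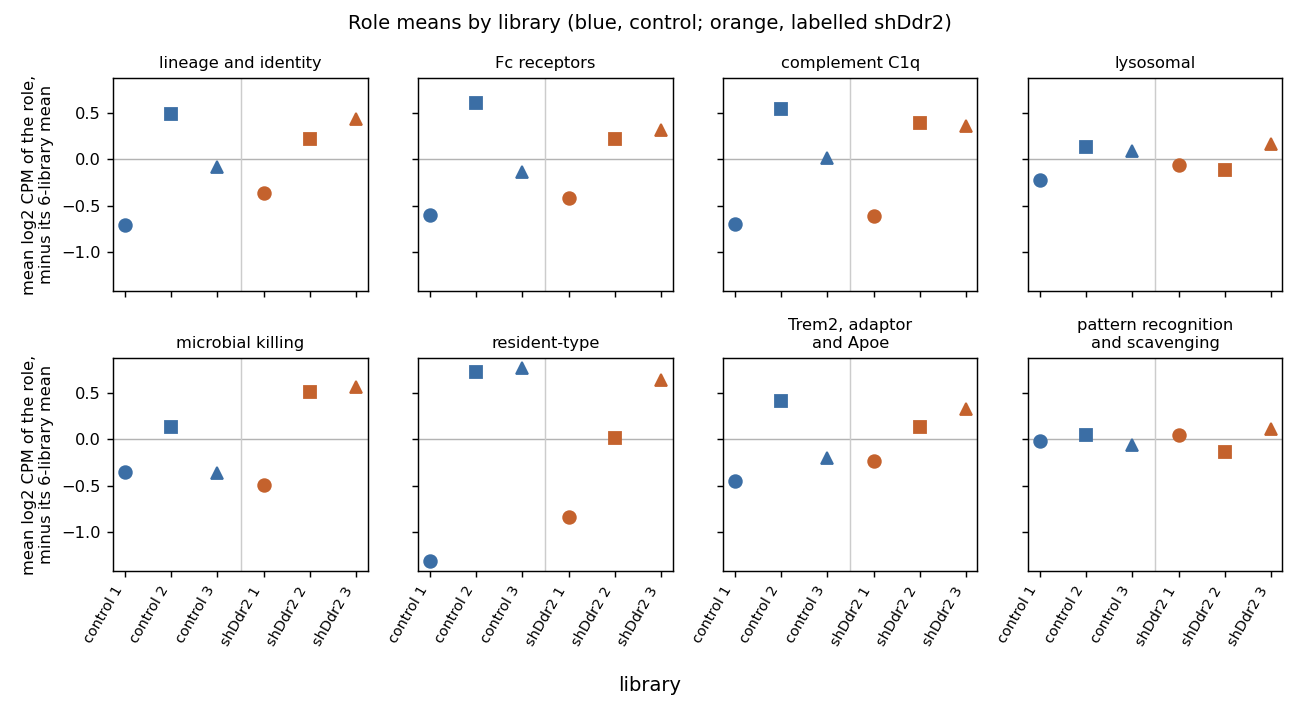
Mean log2 CPM of the genes of each role in each library, minus the mean of the 6 libraries (y axis, same scale in every panel; blue controls, orange libraries labelled shDdr2, circles for number 1). The libraries numbered 1 lie lowest in the lineage, Fc receptor, C1q, resident-type and Trem2 panels, and the lysosomal and pattern recognition means span 0.40 and 0.24.

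Taken relative to the lineage genes of the same library, Fc receptors and C1q varied less between libraries than resident-type genes did. The Fc receptor mean minus the lineage mean was 0.48, 0.50 and 0.33 in control 1 to 3 and 0.33, 0.38 and 0.26 in labelled shDdr2 1 to 3 (log2 units). For C1q the difference was 1.76, 1.81 and 1.86 in control 1 to 3 and 1.49, 1.92 and 1.68 in labelled shDdr2 1 to 3. For resident-type genes it was -0.82, 0.039 and 0.66 in control 1 to 3 and -0.69, -0.41 and -0.0027 in labelled shDdr2 1 to 3, so it spanned over 1 log2 unit in the controls alone. The lysosomal mean stood 4.55, 3.71 and 4.25 in control 1 to 3 and 4.37, 3.73 and 3.80 in labelled shDdr2 1 to 3 above the lineage mean, most in control 1. In each of these the groups overlapped. Differences between the group means of the relative values were -0.12 for Fc receptors, -0.11 for C1q, -0.20 for lysosomal and -0.33 for resident-type genes. For resident-type genes that is less than the SD of the controls, 0.74.

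For C1q, Fc receptors, lysosomal and resident-type genes, the group difference of the role means was smaller than the SD of either group. The means were 5.94 ± 0.62 log2 CPM in the controls and 6.03 ± 0.58 in the libraries labelled shDdr2 for C1q, and 4.57 ± 0.61 and 4.66 ± 0.40 for Fc receptors (SD, n = 3). For lysosomal genes they were 8.30 ± 0.19 and 8.30 ± 0.15, and for resident-type genes 4.09 ± 1.20 and 3.97 ± 0.74. The microbial killing genes were at 5.41 ± 0.28 and 5.80 ± 0.59, so their difference of 0.39 was above the SD of the controls and below that of the other group, and it kept its sign when any 1 library was left out (0.20 to 0.73). That of the resident-type genes, -0.12, ranged from -0.80 without control 1 to 0.27 without labelled shDdr2 1. Each other role changed sign in at least 1 of these runs.

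Levels of different genes were compared per kilobase of exon (GENCODE M21). Averaged over libraries, Ctsd stood highest at 675 CPM per kilobase, followed by Lyz2 at 264, Apoe at 256 and Gpnmb at 219.5. Lyz2 and Apoe overlapped across libraries, from 205 to 348 and from 132 to 386, as did Apoe and Gpnmb. Per kilobase of the longest transcript instead, Apoe was at 389, Gpnmb at 386 and Lyz2 at 264, so the order below Ctsd depends on the length used. On the exon scale, C1qa was at 104, C1qc at 40.4 and C1qb at 32.7 (C1qc at 64.9 by the longest transcript). Tyrobp was at 42.6 and Fcer1g at 35.5, with means above those of the receptors of the list that signal through them: Fcgr3 at 29.3, Clec4n at 22.8, Fcgr4 at 7.28, Fcgr1 at 5.29 and Trem2 at 2.44. Fcer1g and Fcgr3 overlapped across libraries, and so did Fcer1g and Clec4n. The lowest were Slc11a1 at 1.96, Cd163 at 2.06 and Trem2, which overlapped across libraries and of which Trem2 was lowest by the longest transcript. The place of Trem2 rests on annotated lengths of 4946 bases of exon and 4784 of longest transcript. Which of its transcripts were present was not tested, and a shorter one would raise its level per kilobase. By geometric mean, the lysosomal role stood at 89.7, C1q at 48.8, Fc receptors at 12.5 and resident-type genes at 6.45 CPM per kilobase.

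**Figure D5:**
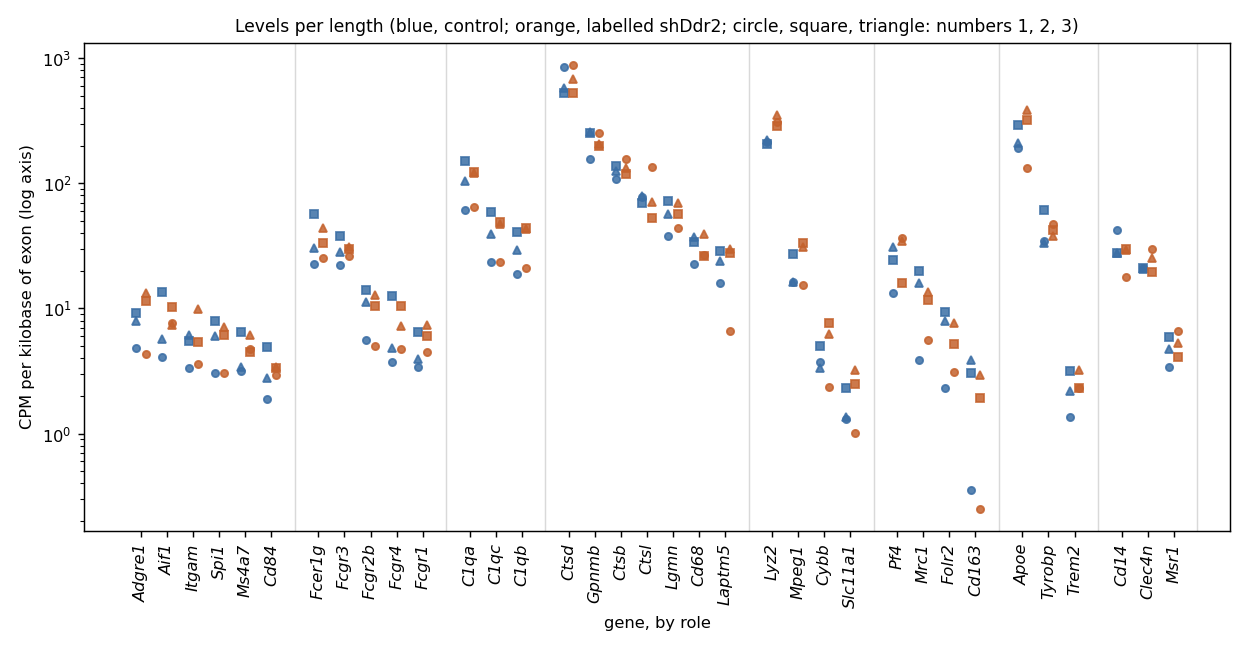
CPM per kilobase of exon (log axis) of each macrophage gene in each library, by role and then by mean level; blue marks controls, orange libraries labelled shDdr2, and circles, squares and triangles the numbers 1, 2 and 3. Ctsd is highest at 527 to 883, and a circle is the lowest symbol in 30 of 35 genes.

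Genes of the same pathways outside the list gave no calls either. Of 16 further macrophage genes, 12 had fitted values above 0 and 4 below, with 0 called and a median of 0.12. Cx3cr1, the fractalkine receptor, was at 14.8, 10.8 and 11.1 CPM in control 1 to 3 and 8.74, 18.5 and 27.7 CPM in labelled shDdr2 1 to 3, and Nr1h3, the sterol-sensing nuclear receptor LXR alpha, at 2.32, 3.82 and 3.46 CPM in control 1 to 3 and 3.68, 4.19 and 4.88 CPM in labelled shDdr2 1 to 3. Both were highest in labelled shDdr2 3, and the groups overlapped. Of 13 genes for Fc receptor transport and the kinases and adaptors downstream, 12 were in the table, 6 were above 0 and 6 below, with 0 called. The groups did not overlap in 1 of these 12, Dok1, against 4.32% of all genes. Dok1, an adaptor that dampens signalling, was at 40.7, 42.2 and 41.2 CPM in control 1 to 3 and 49.3, 47.8 and 44.5 CPM in labelled shDdr2 1 to 3. Its log2 fold change was 0.19 (SE 0.18). Of 8 other genes of the classical complement pathway and its control, 7 were above 0 and 1 below, with 0 called. C4b, which C1s cleaves, was at 9.71, 22.2 and 27.1 CPM in control 1 to 3 and 3.61, 22.4 and 91.2 CPM in labelled shDdr2 1 to 3, widest in the group labelled shDdr2.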

How the data were processed

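Poly-A RNA of whole tumours was sequenced in 6 libraries, per the labels' protocols. The authors deposited a count for each Entrez number, in whole numbers. They may be rounded estimates, because RSEM 1.2.31 is among the tools in the submitters' processing notes, with Bowtie2 2.1.0, limma and the build GRCm38.p5, and no roles are stated. The deposited table has no count under 1, and 17 values of 100000 or more are rounded. The authors also deposited log2 values, which were checked to be the log2 of each count over 1 factor per library, plus 1 (100.0% of values gave whole counts within 0.05). For the annotation, the strand setting and how reads were split between similar genes: not given in the sources used here.

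Symbols came from RefSeq by Entrez number (14876 matched, 419 not) and coordinates and exon lengths from GENCODE M21 (GRCm38). Counts were filtered with filterByExpr, leaving 14498 genes, scaled by TMM and tested with the robust quasi-likelihood F test of edgeR 4.0.16 (R 4.3.3), two-sided, adjusted by Benjamini-Hochberg at a threshold of 0.05. Role means are means of log2 CPM with a prior count of 2. Alternatives were other scalings and filters, DESeq2 1.42.0, limma 3.58.1, a replicate block, left-out libraries and another gene length. The biological coefficient of variation was 35.3%. On counts simulated for this comparison (14498 genes, 200 changed), 4.00% of genes with a set log2 change of 1 and 66.0% of those with one of 2 were called. The simulation drew each gene independently and held no library that stood apart over many genes, as labelled shDdr2 1 and control 1 did. These shares therefore need not hold for the data themselves.

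The genes, their roles and the 19 other lists were chosen with earlier results of these data known. All listed macrophage genes are named. Of other lists the text names only genes among the 3 with the smallest edgeR p or the 2 with the highest mean count, and markers that check a label. Same-numbered libraries deviated together across genes (r of 0.299, 0.267 and 0.253), but control 3 and labelled shDdr2 2 correlated as closely (r of 0.254). The labels do not say what a number stands for. The main fit used no pairing, and the replicate block was run as an alternative. No 2 libraries of a group agreed within counting noise (chi-square per degree of freedom 24.8 to 229).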

Additional observations from a re-analysis of the deposited data

How the results depend on the processing

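No macrophage gene was called under any alternative, and their lowest adjusted p was 0.354 (Lyz2, DESeq2). Over all genes DESeq2 called 34 higher and 6 lower, where edgeR and limma called 0, and 1022 genes had an unadjusted edgeR p under 0.05 without labelled shDdr2 1, against 209; the cause was not tested. With 1 library left out, 16 to 32 macrophage genes were higher and 3 to 19 lower, and 9 were lower on voom weights. Ddr2 ranged from -0.28 to 0.71. Log2 fold changes turned sign when 1 library was left out in 22 genes, with ranges of -0.36 to 0.25 for Spi1, -0.15 to 0.61 for Itgam, -0.18 to 0.77 for Aif1, -0.24 to 0.48 for Cd84, -0.41 to 0.18 for Fcgr2b, -0.19 to 0.19 for Fcgr3, -0.23 to 0.81 for Fcgr4, -0.35 to 0.35 for Fcer1g, -0.30 to 0.31 for C1qa, -0.28 to 0.35 for C1qc, -0.25 to 0.12 for Cd68, -0.12 to 0.35 for Ctsd, -0.28 to 0.45 for Ctsl, -0.18 to 0.26 for Lgmn, -0.20 to 0.10 for Gpnmb, -0.42 to 0.33 for Laptm5, -0.79 to 0.046 for Mrc1, -1.13 to 0.020 for Cd163, -0.70 to 0.050 for Folr2, -0.022 to 0.56 for Trem2, -0.18 to 0.31 for Tyrobp, -0.029 to 0.61 for Apoe. The other 13 kept their sign, with ranges of 0.13 to 0.77 for Adgre1, 0.053 to 0.63 for Ms4a7, 0.20 to 0.70 for Fcgr1, 0.057 to 0.58 for C1qb, 0.032 to 0.22 for Ctsb, 0.48 to 0.62 for Lyz2, 0.22 to 0.71 for Mpeg1, 0.097 to 0.79 for Cybb, 0.089 to 0.79 for Slc11a1, 0.078 to 0.63 for Pf4, -0.47 to -0.10 for Cd14, 0.0058 to 0.39 for Msr1, 0.092 to 0.39 for Clec4n. Without number 1 of both groups the values were -0.13 for Aif1, -0.20 for Cd84, -0.058 for Ctsb, -0.27 for Ctsl, -0.042 for Lgmn, 0.12 for Laptm5, -0.14 for Pf4, 0.082 for Cd14, -0.19 for Msr1. The replicate block gave 0.00010 for C1qa, 0.0036 for C1qc, 0.011 for Gpnmb, 0.024 for Tyrobp, and the block changed no call. Voom weights gave 0.0012 for Fcgr3, 0.0019 for C1qa, 0.011 for C1qc, 0.015 for Gpnmb, 0.022 for Tyrobp, limma on the deposited log2 values 0.010 for Gpnmb, 0.021 for Tyrobp, and library totals alone -0.015 for Cd84. Relative to the lineage genes the signs of 6 turned, to -0.054 for Aif1, -0.15 for Cd84, -0.081 for Fcgr4, -0.032 for Ctsb, -0.077 for Ctsd, -0.15 for Lgmn. The causes were not tested. Taking the longest transcript as length raised the mean log2 CPM per kilobase of every role. Lysosomal genes were at 6.80, pattern recognition genes at 4.17 and lineage genes at 2.83, against 6.49, 3.87 and 2.41. Depth limited 4 genes, Cd163, Folr2, Fcgr4 and Slc11a1, which fell under 100 counts in a library.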

Other observations

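Genes of macrophage activation states lay mostly below 0 in the fit. Of 13 such genes, 11 were in the table, and Il10 and Il12b were not analysed here. Fitted values were below 0 in 10 of 11 and above in 1, beside 6215 of 14498 below 0 for all genes tested. The median log2 fold change was -0.28, with 0 genes called by edgeR and 0 at an unadjusted p under 0.05. The tumours were not sorted, and which cells made these transcripts was not tested. Tnf, the cytokine tumour necrosis factor, was at 23.8, 16.4 and 17.0 CPM in control 1 to 3 and 6.79, 7.41 and 16.2 CPM in labelled shDdr2 1 to 3. Its groups did not overlap, by the small gap between control 2 and labelled shDdr2 3, as in 2.11% of all genes in that direction, with a log2 fold change of -0.91 (SE 0.39) and an unadjusted edgeR p of 0.0516. Arg1, arginase 1, was at 315, 232 and 229 CPM in control 1 to 3 and 236, 81.6 and 155 CPM in labelled shDdr2 1 to 3, and labelled shDdr2 1 lay among the controls.

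Monocyte genes, all 10 in the table, had fitted values above 0 in 8 and below in 2, with 0 called by edgeR, 0 at an unadjusted p under 0.05 and a median of 0.37. Nr4a1, a nuclear receptor of patrolling monocytes that other stimulated cells also express, was at 19.7, 45.2 and 34.5 CPM in control 1 to 3 and 55.7, 55.4 and 39.0 CPM in labelled shDdr2 1 to 3, a log2 fold change of 0.59 (SE 0.33) with overlapping groups. The 2 genes below 0 were Plac8 and Chil3. Plac8 was highest in control 1 at 167 CPM and between 55.7 and 83.3 CPM elsewhere. Chil3 was at 1.19, 19.7 and 5.22 CPM in control 1 to 3 and 5.56, 3.90 and 2.58 CPM in labelled shDdr2 1 to 3, highest in control 2.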
